A study of Homo sapiens with 6 samples.

Results

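The genes described here encode 10 enzymes that make serine and pass its carbon into folate metabolism, in 22Rv1 cells, a human prostate cancer cell line derived from a xenograft of a prostate carcinoma. The members were chosen by symbol, with results from the counts of these libraries already known: PHGDH, PSAT1, PSPH, SHMT1, SHMT2, MTHFD2, MTHFD1L, MTHFD1, ALDH1L2 and DMGDH. All 10 are among the 29804 symbols of the count table, and all 10 passed the filter on low counts, which left 14672 genes for testing. Which comparison guided the choice is not recorded. It was assumed to be 6WP against WT, so member values there are given as a description, without a p-value. Member p-values in the other comparisons rest on this assumption and are not independent of the choice, since each shares libraries with 6WP against WT. RNA-seq was performed in 3 groups of 2 libraries. WT cells were untreated 22Rv1 cells harvested at week 0. AM (age matched) cells spent 6 weeks in culture without the drug, and 6WP cells spent the same 6 weeks under 1 µg/ml of phleomycin, given daily on week days. Phleomycin is a radiomimetic glycopeptide that breaks DNA, and the methods describe exposures of 1 hour followed by a wash and fresh medium. The genotype of every library is given as WT, and all cells were grown in RPMI with foetal bovine serum. The replicates are called biological, but whether they came from separately treated cultures is not stated, so the spread between them may be partly technical.

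Cells can build serine from the glycolytic intermediate 3-phosphoglycerate in a pathway of 3 enzymes, PHGDH, PSAT1 and PSPH. Serine hydroxymethyltransferases then move a carbon from serine to tetrahydrofolate and leave glycine. This reaction and the folate steps that follow exist in parallel in mitochondria (SHMT2, MTHFD2, MTHFD1L, ALDH1L2) and in the cytosol (SHMT1, MTHFD1), and the mitochondrial branch usually exports formate, which the cytosolic branch uses for purine and thymidylate synthesis. DMGDH is a mitochondrial enzyme of choline breakdown that also delivers a carbon to folate. Many genes of serine synthesis and of the mitochondrial branch are known targets of the transcription factor ATF4, which often binds a composite element shared with C/EBP proteins.

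RefSeq promoter windows of the GRCh38.p14 build, from 250 bases before to 50 bases after the annotated start, were matched to 7 of the members (PHGDH, PSAT1, SHMT1, MTHFD2, MTHFD1L, MTHFD1 and DMGDH). The ATF4 element core TGATGNAA was searched on both strands. It was found in 1 of these windows, that of MTHFD1L, and in 3.67% of all 27305 windows. The E-box CACGTG, which reads the same on both strands, was found in 2 of the 7 and in 7.43% of all windows. Its matches were in the windows of MTHFD1 and MTHFD1L, and no base of an E-box match overlapped the ATF4 element. The starts used here are those of RefSeq. In the GENCODE annotation both genes begin further upstream, MTHFD1 at 64388031 and MTHFD1L at 150865679. All 250 bases upstream of the RefSeq start of MTHFD1 lie in annotated exons of MTHFD1 itself. For MTHFD1L, 55 of the 250 lie in its own annotated exons. Some windows without a match share this limit. For PHGDH 197 of the 250 bases lie in annotated exons, and its GENCODE start at 119648411 is upstream of the window. For MTHFD2 the values are 201 bases and 74186172. DMGDH, on the minus strand, begins at 79236038 in GENCODE, also upstream of its window. The 3 matches are shown with 10 bases on either side, read 5′ to 3′ on the gene's strand, with the matched letters in capitals.
MTHFD1L, ATF4 element 129 bases before the start, chr6:150866347-150866374, plus strand: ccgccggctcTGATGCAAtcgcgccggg
MTHFD1L, E-box 154 bases before the start, chr6:150866322-150866347, plus strand: cgcccggctcCACGTGcgcagccggc
MTHFD1, E-box 15 bases before the start, chr14:64388328-64388353, plus strand: agtccctaagCACGTGggttgggttg
Upstream sequence is shown for PSAT1, which was higher in 6WP cells than in both other groups, and for SHMT1, which was lower in 6WP than in AM cells. Neither run overlaps an annotated exon, and neither holds any of these motifs, so neither carries capitals.
PSAT1, chr9:78296875-78297124, plus strand: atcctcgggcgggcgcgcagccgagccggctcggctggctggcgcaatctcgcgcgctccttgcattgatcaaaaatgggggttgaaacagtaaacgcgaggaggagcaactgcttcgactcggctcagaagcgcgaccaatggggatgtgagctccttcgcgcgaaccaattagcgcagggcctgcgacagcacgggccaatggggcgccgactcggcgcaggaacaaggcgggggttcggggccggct
SHMT1, chr17:18363564-18363800, minus strand: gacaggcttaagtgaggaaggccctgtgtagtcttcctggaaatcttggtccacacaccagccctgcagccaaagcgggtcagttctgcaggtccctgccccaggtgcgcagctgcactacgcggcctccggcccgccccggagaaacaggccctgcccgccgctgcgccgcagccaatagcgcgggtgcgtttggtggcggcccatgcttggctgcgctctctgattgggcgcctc
MTHFD1L, with both kinds of match, had the smallest fold change of the mitochondrial members in 6WP cells against either other group. A string match describes these windows only.

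The libraries held between 21222201 and 35311945 counts, and 3 counts, taken as the smallest detectable amount, equal 0.0850 to 0.141 CPM, the unit of counts scaled to library size. Such floors cover counting error only. The 6WP replicates differed more from each other than those of the other groups, with a chi-square per degree of freedom of 63.9 over genes against 5.67 in WT and 9.14 in AM cells. All 9 prostate epithelial markers were detected, at a summed 2063 to 3436 CPM per library. The 4 leukocyte genes summed to 2.31 to 3.66 CPM, nearly all of it CD68, and PTPRC and CD3E were at 0 counts in every library. The 3 endothelial genes summed to at most 0.138 CPM, with CDH5 at 0, and the 3 basal genes to at most 0.179 CPM, with KRT5 at 0. The 5 stromal genes summed to between 16.4 and 20.1 CPM in WT, 1.74 and 2.24 in AM and 2.47 and 3.80 in 6WP cells, most of it LUM in WT cells, and their part in the results was not tested. In bulk RNA, fewer cells expressing a gene and less RNA per cell cannot be told apart.

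Per kilobase of annotated exon, PSAT1 and SHMT2 were the most abundant members in every group, and DMGDH was the least. In WT cells the level was 137 ± 7.32 CPM per kb for PSAT1 and 123 ± 1.49 for SHMT2 (n = 2 each, SD). MTHFD2, PSPH and PHGDH followed with 26.2 ± 1.29, 24.3 ± 1.16 and 18.3 ± 0.0944 (n = 2 each, SD). MTHFD2 and PSPH differed by less than the sum of their SDs. The lowest levels were 5.77 ± 0.208 for MTHFD1L and 0.227 ± 0.0469 for DMGDH (n = 2 each, SD). This order depends on the gene length used. With the longest annotated transcript as the length, PHGDH in WT cells reached 52.8 CPM per kb, above MTHFD2 at 46.1 and PSPH at 30.9, and SHMT2 at 165 stood above PSAT1.

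**Figure D1:**
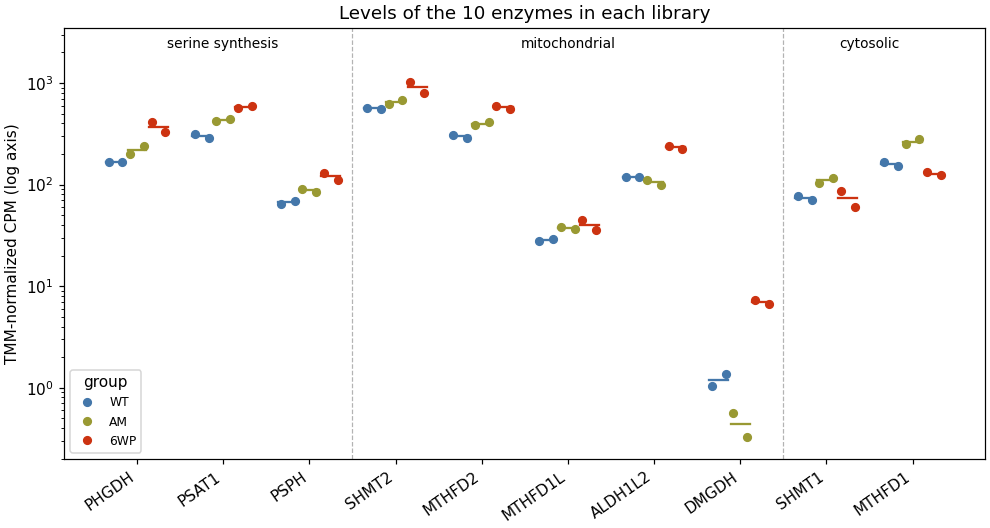
TMM-normalized CPM (log axis) of the 10 enzymes in each of the 6 libraries, with points for libraries and short lines for the mean of the 2 libraries of a group. The 6WP points of PHGDH, PSAT1, PSPH, SHMT2, MTHFD2, ALDH1L2 and DMGDH lie above all other libraries, whereas the AM points are the highest for SHMT1 and MTHFD1.

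In 6WP cells, 7 of the 10 members were called higher than in WT cells and 0 lower at an adjusted p-value under 0.05 from edgeR's quasi-likelihood test, where 3.00% of all tested genes were called, 1.63% higher and 1.37% lower. Because the list is taken to have been made with this comparison in view, nothing is read from that count. The called members were PHGDH, PSAT1, PSPH, SHMT2, MTHFD2, ALDH1L2 and DMGDH. At an unadjusted p under 0.05, 8 members were higher and 1 lower, and the share over all genes at that threshold is not given here. The Wald test of DESeq2 called 8 members higher and 0 lower, and of all tested genes 532 higher and 592 lower. The median log2 fold change of the members was 0.89, against 0.01 over all tested genes. Without WT replicate 1 or without WT replicate 2, the test called 0 members in either direction and 0 of all genes. At an unadjusted p under 0.05, 8 members were higher in each of these fits, and 0 were lower in the first and 1 in the second. Without 6WP replicate 1 or without 6WP replicate 2, at least 1 member was called lower, where far more of all tested genes were called in both directions.

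Against AM cells, which spent the same time in culture, 7 members were called higher and 2 lower in 6WP cells. Of all tested genes, 21.3% were called, 11.7% higher and 9.68% lower. This comparison shares its 6WP libraries with the previous one. The median log2 fold change of the members was 0.48 and that of all tested genes 0.05. ALDH1L2 and DMGDH kept their calls in all 15 alternative fits, and MTHFD1 kept its call in 14. Fewer members were called higher and fewer lower without any 1 AM or WT library, and fewer of all tested genes were called too. Over the fits with 1 library left out, the members' median log2 fold change lay between 0.40 and 0.55.

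The comparison of AM with WT cells concerns time in culture without the drug, and it shares libraries with both others. In AM against WT cells 3 members were called higher (PSAT1, MTHFD2 and MTHFD1) and 1 lower (DMGDH), where 17.7% of all tested genes were called, 7.74% higher and 9.93% lower. The median log2 fold change of the members was 0.39, against -0.0023 over all tested genes. Without any 1 of the WT or AM libraries, the quasi-likelihood test called none of the members and far fewer of all tested genes. Over the fits with 1 library left out, the members' median log2 fold change lay between 0.38 and 0.43. Without 1 of the 6WP libraries, more members and more of all tested genes were called. With the 6WP libraries left out altogether, 8 members were called higher and 1 lower. In that fit 3390 of all tested genes were called higher and 3230 lower. Scaling also moved the split over all genes. It was 1136 higher and 1457 lower, but 729 and 1664 with library size only and 689 and 1832 with upper quartile factors. In 6WP against AM cells, the split was 1711 higher and 1420 lower, but 2276 and 1062 with upper quartile factors.

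**Figure D2:**
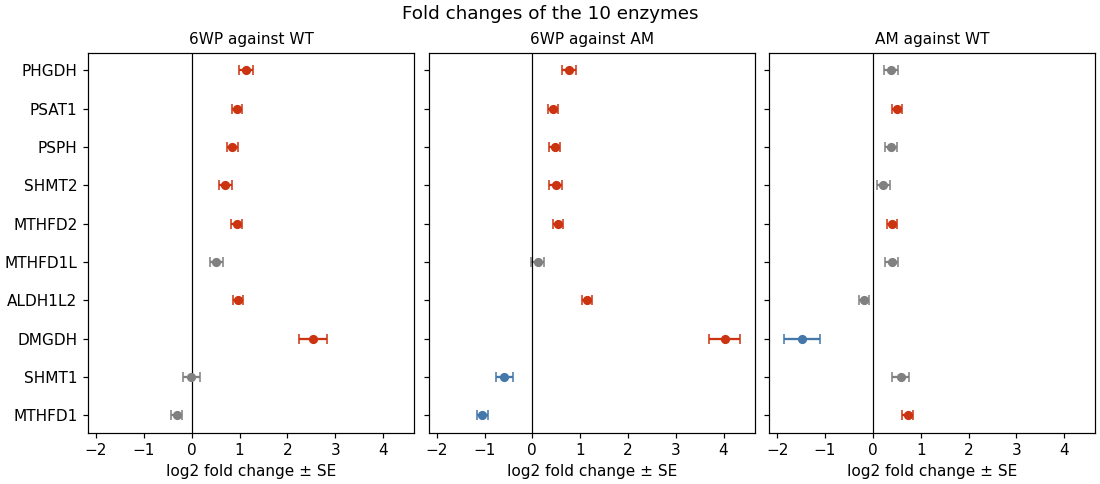
Log2 fold changes of the 10 enzymes with their standard errors in the 3 comparisons, from edgeR's quasi-likelihood fit to all 6 libraries on a common axis. Red marks genes called higher, blue genes called lower and grey genes not called at an adjusted p-value of 0.05; SHMT1 and MTHFD1 lie left of 0 in 6WP against AM cells and right of 0 in AM against WT cells.

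The 3 enzymes of serine synthesis were all called higher in 6WP than in AM cells, where 11.7% of all tested genes were called higher. Their 6WP libraries were also above all WT libraries, which is given as a description only. PHGDH oxidizes 3-phosphoglycerate in the first step and is found on chromosome 1 (plus strand, 119648411 to 119744218). The WT libraries held 169 and 167 CPM, the AM libraries 199 and 240 and the 6WP libraries 415 and 328. The groups did not overlap, and the 6WP replicates stood further apart than the WT replicates. Expressed as log2 fold change, it was 1.15 (SE, the standard error, 0.15) in 6WP against WT cells and 0.76 (SE 0.15, adjusted p = 0.0122) in 6WP against AM cells. For AM against WT cells it was 0.39 (SE 0.14, adjusted p = 0.100) and did not pass. Without AM replicate 1 or AM replicate 2, the adjusted p of PHGDH in 6WP against AM cells was 0.126 and 0.0688.

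PSAT1, the aminotransferase of the second step, is found on chromosome 9 (plus strand, 78297125 to 78330093). It held 313 and 291 CPM in WT, 420 and 441 in AM and 568 and 595 in 6WP cells. PSAT1 was lowest in WT, higher in AM and highest in 6WP cells, with no overlap between groups. On the log2 scale the difference was 0.94 (SE 0.10) in 6WP against WT cells, 0.43 (SE 0.10, adjusted p = 0.0241) in 6WP against AM cells and 0.51 (SE 0.10, adjusted p = 0.0170) in AM against WT cells. PSPH, the phosphatase that releases serine, is found on chromosome 7 (minus strand, 56011051 to 56051604). Its libraries held 65.0 and 69.5 CPM in WT, 90.5 and 84.9 in AM and 131 and 111 in 6WP cells, again without overlap. Its log2 fold change was 0.85 (SE 0.12) in 6WP against WT and 0.47 (SE 0.12, adjusted p = 0.0293) in 6WP against AM cells. AM against WT cells gave 0.38 (SE 0.12, adjusted p = 0.0625). With any 1 WT or AM library left out, the adjusted p-values in 6WP against AM cells lay above 0.05 and reached 0.195 for PSAT1 and 0.206 for PSPH. The annotation holds 4 processed pseudogenes of PSAT1 and 1 unprocessed pseudogene of PSPH. How reads shared with these copies were counted is not given in the sources used here.

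Of the serine hydroxymethyltransferases, SHMT2 was called higher and SHMT1 lower in 6WP than in AM cells. SHMT2, the mitochondrial enzyme, is found on chromosome 12 (plus strand, 57229573 to 57234935). It held 568 and 559 CPM in WT, 627 and 682 in AM and 1033 and 803 in 6WP cells, so that both 6WP libraries were the highest. The difference on the log2 scale was 0.70 (SE 0.14) in 6WP against WT cells and 0.49 (SE 0.14, adjusted p = 0.0409) in 6WP against AM cells. AM and WT cells differed by 0.22 (SE 0.14, adjusted p = 0.297). With the replicate number as a block, the adjusted p of SHMT2 was 0.0517 in 6WP against AM cells, and it was 0.25 without AM replicate 1. Exons of SHMT2 overlap NDUFA4L2 on the opposite strand, which had 102 to 344 counts per library.

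SHMT1, the cytosolic enzyme, is found on chromosome 17 (minus strand, 18327860 to 18363563). Its libraries held 77.5 and 69.8 CPM in WT, 104 and 116 in AM and 86.9 and 59.9 in 6WP cells. The 6WP libraries lay on either side of the WT libraries, and both AM libraries were above all others. Its log2 fold change was -0.01 (SE 0.18) in 6WP against WT cells and -0.59 (SE 0.17, adjusted p = 0.0482) in 6WP against AM cells. In AM against WT cells SHMT1 had a value of 0.58 (SE 0.18, adjusted p = 0.0560). The call against AM cells was at the edge of the threshold, with adjusted p-values up to 0.253 over the alternatives, the highest without AM replicate 2. With upper quartile factors it was 0.0724 and with library size only 0.0737. An exon of SHMT1 overlaps SMCR8 on the opposite strand, a gene with 1476 to 2072 counts per library.

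MTHFD2, a dehydrogenase and cyclohydrolase of the mitochondrial branch, is found on chromosome 2 (plus strand, 74186172 to 74217565). It held 310 and 289 CPM in WT, 384 and 409 in AM and 590 and 557 in 6WP cells. The groups were ordered as for PSAT1 and the replicates lay close together. Expressed as log2 fold change, it was 0.94 (SE 0.11) in 6WP against WT, 0.53 (SE 0.11, adjusted p = 0.0134) in 6WP against AM and 0.40 (SE 0.11, adjusted p = 0.0362) in AM against WT cells. The last call was lost with upper quartile factors (adjusted p = 0.0680), library size only (0.0581) and the replicate block (0.0528), and without any 1 WT or AM library, up to 0.276 without AM replicate 2. In 6WP against AM cells the call was lost without any 1 WT or AM library, up to 0.142 without AM replicate 1. The annotation holds 7 pseudogenes of MTHFD2, of which the table lists MTHFD2P1 with at most 1 count in a library.

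MTHFD1L, the mitochondrial enzyme that releases formate, is found on chromosome 6 (plus strand, 150865679 to 151101887). Its libraries held 27.5 and 28.9 CPM in WT, 37.8 and 36.4 in AM and 44.7 and 35.7 in 6WP cells. The WT libraries were the lowest, but the AM and 6WP libraries overlapped. On the log2 scale the difference was 0.51 (SE 0.14) in 6WP against WT cells and 0.12 (SE 0.14, adjusted p = 0.571) in 6WP against AM cells. It was 0.39 (SE 0.14, adjusted p = 0.0848) in AM against WT cells. The quasi-likelihood test with all 6 libraries called MTHFD1L in none of the 3 comparisons. DESeq2 and the likelihood ratio test called it higher in 6WP against WT cells, which is given as a description only. In AM against WT cells its adjusted p was 0.00344 with only these 2 groups, 0.00469 without 6WP replicate 1 and 0.00271 without 6WP replicate 2.

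ALDH1L2, which oxidizes formyl-tetrahydrofolate in mitochondria and yields NADPH, is found on chromosome 12 (minus strand, 105019784 to 105107643). It held 118 and 120 CPM in WT, 111 and 99.6 in AM and 239 and 226 in 6WP cells. Unlike PSAT1 and MTHFD2, ALDH1L2 had its lowest values in AM cells. The difference on the log2 scale was 0.96 (SE 0.11) in 6WP against WT cells and 1.14 (SE 0.11, adjusted p = 0.00202) in 6WP against AM cells. Between AM and WT cells it was -0.18 (SE 0.11, adjusted p = 0.262). Over the 15 alternatives the adjusted p in 6WP against AM cells stayed at or below 0.0457. Exons of ALDH1L2 overlap WASHC4 and NOPCHAP1 on the opposite strand, which the table lists as KIAA1033 and C12orf45.

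DMGDH, the dimethylglycine dehydrogenase, is found on chromosome 5 (minus strand, 78997564 to 79236038) and was the member with the largest fold changes at the lowest level. The WT libraries held 23 and 30 counts, the AM libraries 13 and 11, and the 6WP libraries 202 and 189. In CPM these were 1.03 and 1.38 in WT, 0.560 and 0.324 in AM and 7.30 and 6.66 in 6WP cells. The groups did not overlap, with AM cells at the bottom and 6WP cells far above both. Its log2 fold change was 2.53 (SE 0.29) in 6WP against WT cells and 4.02 (SE 0.32, adjusted p = 0.00164) in 6WP against AM cells. DMGDH fell by 1.49 on the log2 scale in AM against WT cells (SE 0.37, adjusted p = 0.0315). The last call was lost without any 1 WT or AM library, with adjusted p-values from 0.0848 to 0.235. An exon of DMGDH overlaps BHMT on the opposite strand. BHMT, which encodes the enzyme that acts just before DMGDH in betaine breakdown, and BHMT2 were both at 0 counts in all 6 libraries.

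MTHFD1 carries the cytosolic dehydrogenase, cyclohydrolase and synthetase activities in 1 protein and is found on chromosome 14 (plus strand, 64388031 to 64463457). Its libraries held 167 and 153 CPM in WT, 250 and 280 in AM and 132 and 125 in 6WP cells. AM cells were the highest and 6WP cells the lowest, with no overlap. MTHFD1 rose by 0.73 on the log2 scale in AM against WT cells (SE 0.11, adjusted p = 0.00753) and fell by 1.05 in 6WP against AM cells (SE 0.11, adjusted p = 0.00232). In 6WP against WT cells it had a value of -0.32 (SE 0.11). The adjusted p in 6WP against AM cells was 0.0506 without AM replicate 2. In AM against WT cells it lay between 0.0634 and 0.106 without any 1 WT or AM library. The annotation also holds 1 processed pseudogene of MTHFD1 and 1 of SHMT1. MTHFD1 overlaps ZBTB25 on the opposite strand, which had 94 to 146 counts per library.

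The kit used for the libraries keeps strand information, but the strand setting of the counting is not given in the sources used here, so reads of the overlapping genes on opposite strands may not have been separated. Among the 10 members, 6WP replicate 1 was higher than 6WP replicate 2 for 9, with PSAT1 as the exception. The median absolute log2 difference between the 6WP replicates was 0.19 over the members and 0.28 over all tested genes. SHMT1 was the furthest apart, 0.54 higher on the log2 scale in 6WP replicate 1.

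Added up, the members accounted for 1783 ± 48.3 CPM (WT), 2306 ± 118 (AM) and 3047 ± 283 (6WP, n = 2 each, SD). The 3 serine synthesis genes summed to 537 ± 13.8 CPM (WT), 737 ± 40.0 (AM) and 1074 ± 56.2 (6WP, n = 2 each, SD). For SHMT2, MTHFD2, MTHFD1L, ALDH1L2 and DMGDH together, the sums were 1012 ± 19.3, 1194 ± 47.9 and 1772 ± 202 CPM (n = 2 each, SD). The cytosolic SHMT1 and MTHFD1 summed to 233 ± 15.2 in WT, 375 ± 30.4 in AM and 202 ± 24.2 CPM in 6WP cells (n = 2 each, SD). The mitochondrial and serine synthesis sums were thus highest in 6WP cells and the cytosolic sum in AM cells.

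The ratio of a mitochondrial to a cytosolic enzyme within a library does not depend on library scaling. SHMT2 had 7.33 and 8.0 counts per count of SHMT1 in WT, 6.03 and 5.87 in AM and 11.9 and 13.4 in 6WP cells. MTHFD2 had 1.86 and 1.89 counts per count of MTHFD1 in WT, 1.54 and 1.46 in AM and 4.47 and 4.47 in 6WP cells. MTHFD1L had 0.165 and 0.189 counts per count of MTHFD1 in WT, 0.152 and 0.130 in AM and 0.339 and 0.286 in 6WP cells. For each of the 3 pairs both 6WP libraries were above both WT libraries, which were above both AM libraries. The geometric mean ratio was 2.12 times as high in 6WP as in AM cells for SHMT2 over SHMT1, 2.98 times for MTHFD2 over MTHFD1 and 2.22 times for MTHFD1L over MTHFD1. Against WT cells the values were 1.65, 2.38 and 1.76 times. An exact permutation test (two-sided) of 2 against 2 libraries cannot give a p below 0.333, so no test was made. ALDH1L1, the cytosolic counterpart of ALDH1L2, held 3 and 8 counts in WT, 6 and 9 in AM and 5 and 34 in 6WP cells, too few for a ratio.

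**Figure D3:**
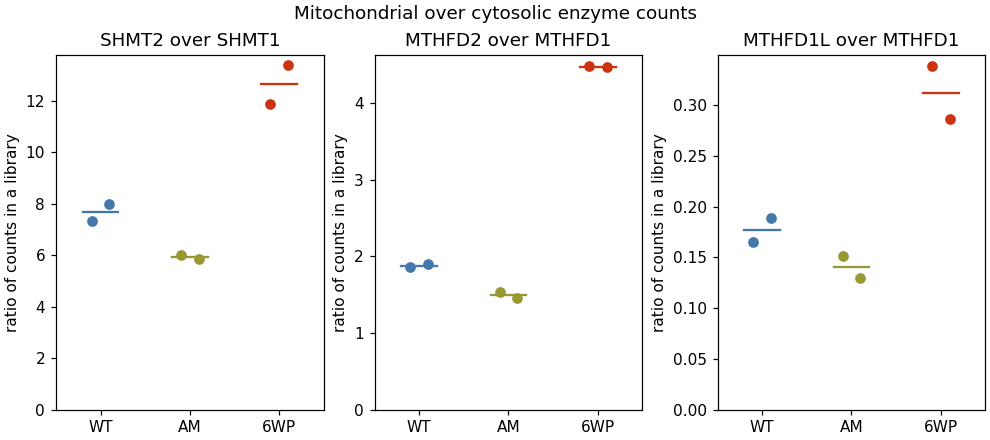
Counts of a mitochondrial enzyme divided by counts of its cytosolic counterpart in each library, for SHMT2 over SHMT1, MTHFD2 over MTHFD1 and MTHFD1L over MTHFD1, with points for libraries and lines for group means on axes that start at 0. In each panel the 6WP points are the highest and the AM points the lowest.

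Of 56 neighbouring genes in the table (glycine use, other folate enzymes, choline oxidation, the methionine cycle, and folate and serine transport), 47 were tested. These genes, and the transcription factors described below, were also listed with earlier results of these data known. Their p-values, those in 6WP against WT cells included, are therefore not independent of that knowledge. In 6WP against WT cells, 5 of them were called higher and 0 lower by the quasi-likelihood test of edgeR. At an unadjusted p under 0.05, 7 were higher and 7 lower. DESeq2 called 5 higher and 1 lower, and of all tested genes 532 higher and 592 lower. By the quasi-likelihood test 1.63% of all tested genes were higher and 1.37% lower. The median log2 fold change was -0.03 for the neighbours and 0.01 for all genes. In 6WP against AM cells, 4 were higher and 8 lower with a median of -0.11, where 11.7% of all genes were higher and 9.68% lower with a median of 0.05. In AM against WT cells 10 were higher and 4 lower with a median of 0.11, where 7.74% of all genes were higher and 9.93% lower with a median of -0.0023. Without either WT library the numbers in 6WP against WT cells were 0 higher and 0 lower, with 6 higher and 0 or 1 lower at an unadjusted p under 0.05. Without 6WP replicate 1 they were 7 higher and 6 lower, without 6WP replicate 2 they were 8 and 11, and without either AM library 2 and 0. In 6WP against AM cells, leaving out AM replicate 1 or AM replicate 2 gave 1 higher and 0 lower, with 9 and 10 lower at an unadjusted p under 0.05. Leaving out WT replicate 1 gave 3 and 5, WT replicate 2 gave 2 and 6, 6WP replicate 1 gave 8 and 14, and 6WP replicate 2 gave 4 and 18. In AM against WT cells the numbers were 0 higher and 0 lower without WT replicate 1, WT replicate 2 or AM replicate 2, with 10 or 11 higher and 4 or 5 lower at an unadjusted p under 0.05. They were 2 and 0 without AM replicate 1, 17 and 10 without 6WP replicate 1, and 18 and 9 without 6WP replicate 2.

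MAT2A, which makes the methyl donor S-adenosylmethionine from methionine, had the largest rise among the neighbours in 6WP cells. Its libraries held 182 and 183 CPM in WT, 140 and 149 in AM and 741 and 443 in 6WP cells, with the 6WP libraries far apart but above all others. Its log2 fold change was 1.70 (SE 0.21, adjusted p = 0.00912) against WT and 2.04 (SE 0.22, adjusted p = 0.00232) against AM cells. The serine and glutamine carrier SLC1A5 rose by 1.00 (SE 0.12, adjusted p = 0.00744) against WT cells and by 0.51 (SE 0.12, adjusted p = 0.0205) against AM cells. SLC1A5 was also called higher in AM against WT cells, by 0.49 (SE 0.12, adjusted p = 0.0274). GCAT, a mitochondrial enzyme of threonine breakdown that yields glycine, rose in 6WP against WT cells by 0.71 (SE 0.11, adjusted p = 0.0202) and in AM against WT cells by 1.03 (SE 0.11, adjusted p = 0.00268).

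Of 8 tested genes listed as cytosolic folate and purine enzymes, 4 were called lower, 1 higher and 3 not in 6WP against AM cells. Over all tested genes 9.68% were called lower and 11.7% higher in this comparison. Of the 5 tested neighbouring mitochondrial folate enzymes, 0 were called in it, with a median log2 fold change of -0.11. Against WT cells 0 of these 5 were called, with a median of 0.08. TYMS, thymidylate synthase, held 154 and 141 CPM in WT, 363 and 403 in AM and 167 and 90.4 in 6WP cells. TYMS rose by 1.38 in AM against WT cells (SE 0.25, adjusted p = 0.0118) and fell by 1.57 in 6WP against AM cells (SE 0.25, adjusted p = 0.00703). In 6WP against WT cells TYMS was at -0.20 (SE 0.25) and not called. PAICS, a purine synthesis enzyme that uses no folate, and ATIC, which does, fell by 0.63 (SE 0.12, adjusted p = 0.0112) and 0.42 (SE 0.10, adjusted p = 0.0245) in 6WP against AM cells. In AM against WT cells ATIC was called higher by 0.46 (SE 0.10), and PAICS was not called at 0.29 (SE 0.12). Neither was called in 6WP against WT cells, with -0.34 for PAICS (SE 0.12) and 0.05 for ATIC (SE 0.10).

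Among glycine enzymes, GLDC, of the glycine cleavage system, fell by 0.52 in 6WP against AM cells (SE 0.11, adjusted p = 0.0175). GLDC was called higher in AM against WT cells, by 0.72 (SE 0.11). In 6WP against WT cells it was at 0.20 (SE 0.11) and not called. GATM, which uses glycine to make the creatine precursor, fell by 1.38 in AM against WT cells (SE 0.37, adjusted p = 0.0372). This rests on few reads, 26 and 26 counts in the WT and 8 and 18 in the AM libraries. SFXN2, of the family of mitochondrial serine carriers, fell by 0.74 in 6WP against AM cells (SE 0.15, adjusted p = 0.0143). SFXN2 too was called higher in AM against WT cells, by 0.59 (SE 0.15). In 6WP against WT cells it was at -0.15 (SE 0.15) and not called. SLC1A4, a serine and alanine carrier, rose by 1.02 in AM against WT cells (SE 0.12, adjusted p = 0.00405). It was also called higher in 6WP against WT cells, by 0.84 (SE 0.12, adjusted p = 0.0170). In 6WP against AM cells SLC1A4 was at -0.17 (SE 0.12) and not called. FOLH1, the prostate folate hydrolase, rose by 1.11 in 6WP against AM cells (SE 0.17, adjusted p = 0.00670). In AM against WT cells FOLH1 was lower by 0.66 (SE 0.17, adjusted p = 0.0360). In the methionine cycle, AHCYL1 fell by 0.43 in 6WP against AM cells (SE 0.11, adjusted p = 0.0284) and AHCYL2 by 0.60 in AM against WT cells (SE 0.14, adjusted p = 0.0232).

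MTHFD2L, the close relative of MTHFD2, held 7.65 ± 0.0376 CPM (WT), 8.73 ± 0.475 (AM) and 8.10 ± 0.711 (6WP, n = 2 each, SD). Its adjusted p-values in the quasi-likelihood test lay between 0.442 and 0.817. SARDH, which acts after DMGDH on sarcosine, held 2.41 ± 0.945 CPM (WT), 5.30 ± 0.172 (AM) and 3.72 ± 0.563 (6WP, n = 2 each, SD). SARDH rose by 1.14 in AM against WT cells (SE 0.29, adjusted p = 0.0345), the comparison in which DMGDH fell.

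Of the transcription factors known to act on serine synthesis genes, ATF4 held 424 ± 1.76 CPM (WT), 538 ± 57.7 (AM) and 735 ± 5.81 (6WP, n = 2 each, SD). ATF4 rose by 0.80 in 6WP against WT cells (SE 0.11, adjusted p = 0.0155) and by 0.45 in 6WP against AM cells (SE 0.11, adjusted p = 0.0273), and in AM against WT cells its value was 0.34 (SE 0.11, adjusted p = 0.0703). MYC held 391 ± 58.6 CPM (WT), 241 ± 15.6 (AM) and 379 ± 68.0 (6WP, n = 2 each, SD). MYC fell by 0.70 in AM against WT cells (SE 0.16, adjusted p = 0.0233) and rose by 0.65 in 6WP against AM cells (SE 0.16, adjusted p = 0.0246). In 6WP against WT cells it was at -0.05 (SE 0.16) and not called. NFE2L2 was not called in any of the 3 comparisons by the quasi-likelihood test, with adjusted p-values between 0.145 and 0.848.

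**Figure D4:**
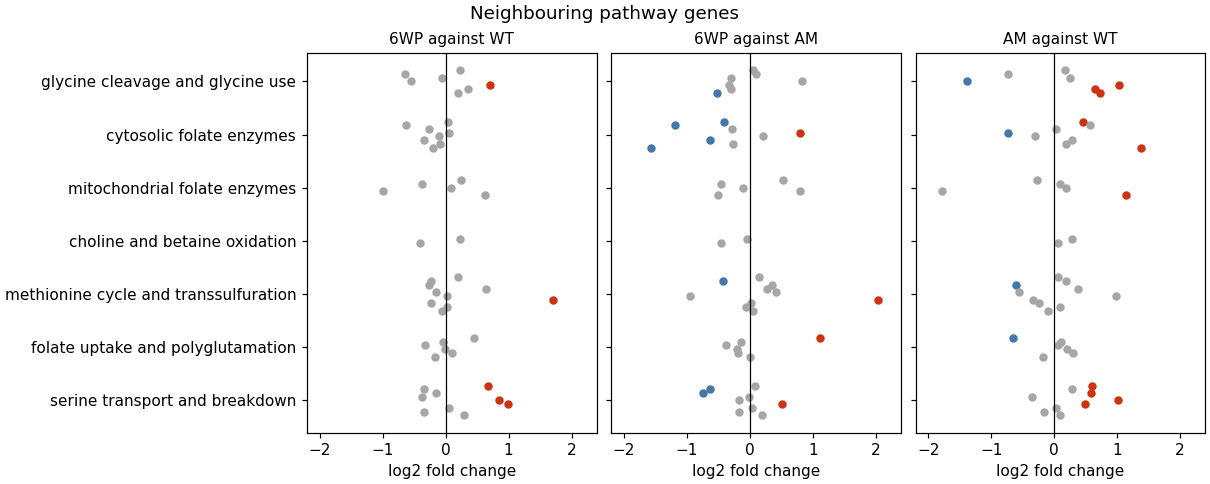
Log2 fold changes of the 47 tested neighbouring genes by role in the 3 comparisons; each point is a gene, red if called higher, blue if called lower and grey if not called at an adjusted p-value of 0.05. MAT2A is the rightmost red point in both 6WP panels, and TYMS the leftmost blue point among cytosolic folate enzymes in 6WP against AM cells.

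The median of the members' centred log2 CPM was -0.37 and -0.29 in WT, -0.05 and 0.01 in AM and 0.54 and 0.38 in 6WP cells. Among 11971 other genes with a mean of at least 1 log2 CPM, those closest to this profile included C14orf79, CHMP6, GLYATL1 and C5orf28. Their Euclidean distances over the 6 libraries were 0.139 for C14orf79, 0.153 for CHMP6, 0.184 for GLYATL1 and 0.189 for C5orf28 on the log2 scale. With 6 libraries in 3 groups, many genes can share such a profile.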

How the data were processed

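Single end reads of 100 bp from RNA of 6 libraries were, per the labels and the methods, aligned by the authors to hg38 with STAR 2.5.3a. The submitters' processing notes also name featureCounts 1.5.3, StringTie 1.3.3, edgeR 3.22.3 and R 3.5.0. The deposited values are unscaled counts, 1 row for each gene symbol, and 0 columns were left out. Annotation, strand setting and the treatment of reads with several positions are not given in the sources used here. Samples were grouped by their titles. Counts were analysed with R 4.3.3 and edgeR 4.0.16: filterByExpr by group, TMM factors, a quasi-likelihood fit to all 6 libraries without covariates, and 3 two-sided comparisons, with Benjamini-Hochberg adjustment over all 14672 tested genes and a threshold of 0.05. CPM are TMM normalized. Standard errors (SE) were taken from the F statistic, as the absolute log2 fold change over its root. Positions, exon lengths and overlaps are from GENCODE on GRCh38, the build of hg38.

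The members and the neighbouring gene lists were chosen with earlier results of these data known. All members were named. Of the neighbours, the largest called rise and fall of each role and comparison were named, plus MTHFD2L, SARDH, ALDH1L1, ATF4, MYC and NFE2L2. PAICS, ATIC, BHMT and BHMT2 were named after their values were seen. Some genes that these rules name are not reported here. The median profile was compared with other genes by Euclidean distance. Alternatives were other size factors, other filters, DESeq2 1.42.0, the likelihood ratio test, a fit to 2 groups only, a replicate block and each library left out in turn. Where a group was left with 1 library, it was assumed to vary like the others. The pipeline was tested on simulated data. Protein sequences were not used here.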

Additional observations from a re-analysis of the deposited data

How the results depend on the processing

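Each of the 30 member fold changes was recomputed in 15 alternative fits. Of these 450 values, 349 kept direction and side of the threshold, 73 lost a call, 25 gained one and 3 changed sign. The sign changes concerned values near 0: SHMT1 in 6WP against WT cells was 0.07 without WT replicate 1 and lay between -0.31 and 0.21 over all fits without 1 library, and MTHFD1L in 6WP against AM cells was -0.059 without 6WP replicate 1 and lay between -0.059 and 0.24. Their cause was not tested. With 2 libraries a group, leaving out 1 left few degrees of freedom, and the number called over all tested genes moved as well. Over these fits, members called higher ranged from 0 to 8 in 6WP against WT, 2 to 7 in 6WP against AM and 0 to 8 in AM against WT cells, and members called lower from 0 to 2, 0 to 2 and 0 to 1. Neighbouring genes called higher ranged from 0 to 8, 1 to 8 and 0 to 18, and those called lower from 0 to 11, 0 to 18 and 0 to 10. The members' median log2 fold change lay between 0.79 and 0.91, 0.40 and 0.55, and 0.38 and 0.43.

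With upper quartile factors, library size only or at least 10 counts in every library, 1 member in place of 2 was called lower in 6WP against AM cells, and the median in AM against WT cells was 0.30, 0.33 and 0.37. DESeq2 and the likelihood ratio test each called 5 members higher in AM against WT cells, beside 1512 and 1567 of all tested genes. Each called 1 neighbour lower in 6WP against WT cells, beside 592 and 723 of all tested genes. With only the 2 groups compared in the fit, 3 members were higher and 1 lower in 6WP against AM cells. Over all tested genes 668 were then higher and 641 lower. In AM against WT cells 8 members were higher and 1 lower, beside 3390 and 3230 of all tested genes. The neighbours called higher were then 2, 2 and 18 in the 3 comparisons, and 9 were lower in AM against WT cells. TGACGTCA, the CRE, was found in 0 of the 7 promoter windows in place of 1. The cause of these differences was not tested. The labels do not say that replicate numbers mark shared cultures, and deviations of same-numbered libraries had correlations of 0.04, 0.09 and -0.02. With a replicate block, 6, 6 and 2 members were called higher and 0, 2 and 1 lower. The replicate block ended the calls of SHMT2 in 6WP against AM cells (adjusted p = 0.0517) and of MTHFD2 in AM against WT cells. SHMT2 was also not called in 6WP against WT cells with the block, which is given as a description only. Levels per kilobase of 27 of 30 members and groups moved with the longest transcript as the length. Depth limits DMGDH most, at 11 to 30 counts in the WT and AM libraries.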
